A study of Mus musculus with 4 samples.

Results

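The comparison described here is the difference between the LIF responses of 2 lines of mouse embryonic stem cells, and it takes in all 4 arrays of the series and 12422 of 12488 probe sets, the other 66 being array controls. For each gene, the log2 intensity without LIF minus that with LIF was taken as the response of a line. The response of control cells was then subtracted from the response of Akt cells, so a positive difference means that the gene stood higher after LIF withdrawal in Akt cells, relative to their own culture with LIF, than it did in control cells. The cells were E14tg2a, a feeder-free line, labelled as controls or as expressing an Akt that is constitutively active. The titles name the latter Akt12. Both lines were sampled with LIF at 3000 U/ml and after 4 days without LIF, which makes 4 groups, each line in either medium. Each group held 1 array of total RNA. The form of Akt, its promoter, whether 12 numbers a clone and whether control cells carry an empty vector were not stated in the labels.

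LIF binds a receptor that activates the transcription factor STAT3 through JAK kinases, and in mouse embryonic stem cells this keeps genes of the undifferentiated state on. Akt is the main kinase downstream of phosphoinositide 3-kinase, and it promotes growth, protein synthesis and glucose use and keeps FOXO transcription factors out of the nucleus. The title of the series is about the effect of LIF on cells overexpressing Akt, and the difference of responses is the value that addresses it.

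With 1 array per group there is no replicate check, so no difference below was tested, no p-value is given and sizes are described as 2-fold or more, a log2 value of 1. Intensities were brought to one distribution, and values under 15.8, the 40th percentile, were set to that floor. A gene at the floor has only a bound. Trimmed mean intensities as deposited were 80.3 to 121. The 4 intensities of a gene are always given in a fixed order, control cells before Akt cells and, within a line, LIF before no LIF. Of 10 stem cell markers, 9 were above the floor on every array, and Fut4 was at the floor on all 4. Of 11 fibroblast markers on the array, 5, 9, 5 and 6 were above the floor, with summed intensities of 336, 690, 429 and 410, and Postn and Fap were at the floor throughout. The actin 3' to 5' ratio, which reflects RNA integrity and labelling, was 2.33, 1.66, 3.04 and 2.48. That ratio was lowest in control cells without LIF and highest in Akt cells with LIF. The Gapdh ratio ordered the arrays otherwise, at 3.03, 3.19, 3.05 and 2.46, highest in control cells without LIF. The part of RNA quality in the differences between lines was not tested. In such bulk RNA, fewer cells of a type and less RNA per cell cannot be told apart.

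Genes were sorted by both responses. A response was called opposite when it was 2-fold or more in both lines with opposite signs. It was blunted when it was 2-fold in control cells and at least 2-fold short of that in Akt cells. It was enhanced when it was 2-fold in Akt cells and at least 2-fold beyond the control response. In the 6258 genes that exceeded the floor on 1 array or more, the difference of responses was 2-fold or more above 0 in 579 (9.25%) and below 0 in 580 (9.27%). Wdr92, at 1.0002 in size, lay just inside that size, and Rab21, at 0.9994, just outside. Blunted responses were the most frequent class with 527 genes (8.42%), against 158 enhanced (2.52%) and 34 opposite (0.543%). Of the 527 blunted genes, 145 had some array at the floor and 69 had both Akt arrays there. Of the 158 enhanced genes, 58 had some array at the floor and 15 had both control arrays there. With both arrays of a line at the floor, no response of that line was measured. These counts depend on the floor: set at the 20th and 60th percentile, it gave 834 and 340 blunted, 477 and 69 enhanced and 106 and 17 opposite genes, and 2-fold differences numbered 1012 and 346 above 0 and 1004 and 357 below. A further 440 genes (7.03%) differed 2-fold between lines because responses under 2-fold had opposite signs. Control cells had 442 genes 2-fold higher without LIF (7.06%) and 383 lower (6.12%), and Akt cells had 179 (2.86%) and 217 (3.47%). A gene was above the floor on all 4 arrays in 5027 cases, and there the classes held 382 blunted, 100 enhanced and 27 opposite genes. In 99 of the 100 enhanced genes the control response was under 2-fold. In most of those with the largest differences it had the other sign, such as Hes6 at -0.95 in control and 1.61 in Akt cells. Enhanced therefore does not mean a larger response in the same direction. The scaling bears on direction: 49.96% of the 2-fold differences were above 0, and 38.6% were when arrays were scaled to their hybridization controls, which moved the median difference of all genes from 0.01 to -0.10.

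**Figure D1:**
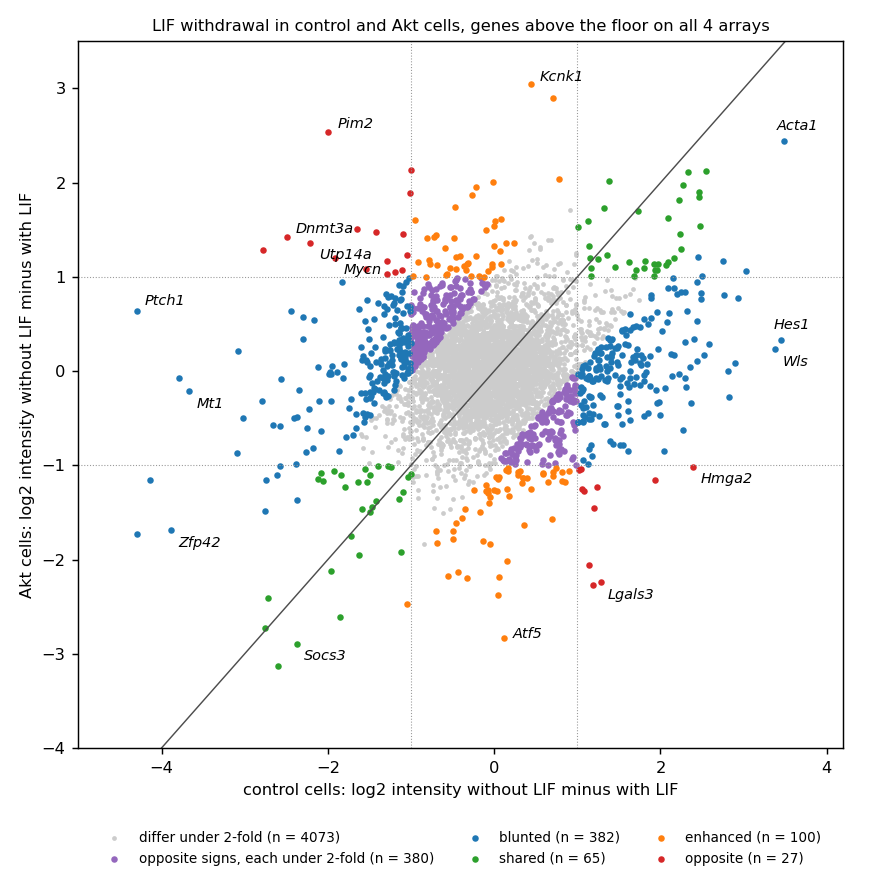
Response to LIF withdrawal in control cells (x axis) and Akt cells (y axis), in log2 units without LIF minus with LIF, for 5027 genes never at the floor, with 1 array per group. The diagonal marks equal responses and dotted lines mark 2-fold, and the 382 blunted genes spread along the x axis while the 100 enhanced genes lie above and below the centre.

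Responses of 2-fold in control cells were mostly under 2-fold in Akt cells, though more often of the same sign than not. Of the 382 blunted genes, 192 were higher and 190 lower without LIF in control cells. In 369 of the 382 the Akt response was under 2-fold, in 13 it was still 2-fold in the same direction, and in 200 it had the other sign. The class asks for an Akt response 2-fold short, so these counts follow in part from its definition. A gene picked for a large value in one line tends to have a smaller one in the other, so the same count was made both ways. Of 627 genes with a 2-fold response in control cells, 595 (94.9%) had a smaller one in Akt cells. It was under 2-fold in 521 (83.1%) and of the same sign in 400 (63.8%). Of 287 genes with a 2-fold response in Akt cells, 213 (74.2%) had a smaller one in control cells. It was under 2-fold in 181 (63.1%) and of the same sign in 191 (66.6%). Responses had an SD over genes of 0.71 in control cells and 0.51 in Akt cells.

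A single array can make a difference of responses. In the 889 genes with a 2-fold difference and no array at the floor, control cells without LIF lay 2-fold or more away from each of the other 3, while those lay within 2-fold of each other, in 195 genes (21.9%), high in 112 and low in 83. Akt cells with LIF stood apart in 33 genes, control cells with LIF in 13 and Akt cells without LIF in 8. Akt cells without LIF lay within 2-fold of control cells with LIF in 836 of the 889 genes (94.0%). Akt cells with LIF lay within 2-fold of control cells without LIF in 587 (66.0%). The shares of all genes with these pairs of arrays within 2-fold were not counted, so no likeness between the arrays is read from them. The one error that these arrays hold is between probe sets of one gene, whose differences of responses spread with a pooled SD of 0.50 over 747 genes. It does not cover separate cultures. Other probe sets of genes in a class fell in the same class in 16 of 56 cases (28.6%). Those of blunted genes did so in 13 of 46 cases, had the same sign in 40 and a 2-fold difference of that sign in 23. Those of enhanced genes did so in 3 of 8 cases and those of opposite genes in 0 of 2.

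The 27 opposite genes that were never at the floor split into 16 that were lower without LIF in control cells and higher in Akt cells, and 11 that went the other way. Several of the 16 encode proteins of growth and ribosome production. Pim2, a serine/threonine kinase gene tied to growth and survival, read 240.8, 60.4, 60.2 and 350.0, with a response of -1.99 in control and 2.54 in Akt cells. The high arrays were those of control cells with LIF and of Akt cells without it. Another probe set of Pim2 was above the floor only in control cells with LIF. Mycn, the N-Myc gene, read 858.3, 227.3, 202.1 and 465.0, with responses of -1.92 and 1.20. Ccne1, which encodes the G1 cyclin E1, read 424.0, 185.1, 178.9 and 370.4 with responses of -1.20 and 1.05. These genes share a crossed pattern, in which the higher arrays were those of control cells with LIF and of Akt cells without it. The class asks for opposite responses, so this pattern follows in part from how the genes were picked.

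Genes of ribosomes and RNA were also lower without LIF in control cells and higher in Akt cells. Utp14a, which encodes a part of the complex that processes small subunit ribosomal RNA, read 328.7, 70.9, 156.4 and 401.6, and its responses were -2.21 and 1.36. Pus1, a pseudouridine synthase gene, read 123.5, 61.6, 16.0 and 70.6, so Akt cells with LIF were near the floor and the other 3 arrays were above it. Knop1, a nucleolar protein gene, read 290.3, 108.2, 84.3 and 234.0. Dnmt3a, a de novo DNA methyltransferase gene, read 206.3, 36.6, 127.4 and 343.0, where control cells without LIF formed the low array and Akt cells without LIF the high one. Its responses were -2.50 and 1.43, and its other probe set was above the floor on 0 arrays.

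Membrane and other genes made up the remainder of the 16. Slc27a2, which encodes a very long chain fatty acid transporter and acyl-CoA synthetase, read 174.4, 25.5, 19.8 and 48.1, with responses of -2.78 and 1.28. Emb encodes embigin, a partner of lactate transporters, and read 211.3, 67.1, 74.0 and 210.6, so the crossed arrays nearly coincided. Gadd45g, a stress-inducible gene, read 50.8, 23.8, 32.3 and 88.4. Zfp36l2, whose protein promotes decay of messenger RNA with AU-rich elements, read 213.6, 105.7, 87.0 and 321.9, but another probe set gave responses of 0.28 and 0.47 and no opposition. Ggct, Etv2, Luc7l3, Abhd14a and Slc6a15 completed the group, with control responses of -1.05 to -1.54 and Akt responses of 1.03 to 1.24. The cell proliferation factor gene Myb, at 51.0, 15.8, 29.6 and 99.6, had the same directions with 1 array at the floor. Cplx1, at 39.6, 15.8, 15.8 and 42.3, and Fgf15, at 35.3, 15.8, 15.8 and 36.5, did so with 2.

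The 11 genes that were higher without LIF in control cells and lower in Akt cells included secreted, membrane and chromatin proteins. Lgals3, which encodes the sugar-binding protein galectin-3, read 156.6, 380.1, 536.0 and 113.4, with responses of 1.28 and -2.24. Kdelr3, a receptor gene that returns proteins from the Golgi to the endoplasmic reticulum, read 58.4, 132.9, 437.0 and 90.9, with responses of 1.19 and -2.27. In these, Akt cells with LIF were the highest array. Bmp4, a growth factor gene of the BMP family, read 242.6, 536.6, 357.0 and 85.5, and its responses of 1.15 and -2.06 were 0.66 and -1.74 with another probe set. Akt cells without LIF were the lowest array for Bmp4.

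Hmga2, which encodes an architectural chromatin protein of embryonic cells, read 93.6, 490.9, 131.9 and 65.2, with responses of 2.39 and -1.02. Litaf, a gene of a lysosomal and endosomal membrane protein, read 116.7, 446.4, 139.7 and 62.9, with responses of 1.94 and -1.15. For both genes control cells without LIF stood above the other 3 arrays. Reck, whose protein inhibits matrix metalloproteinases, had responses of 1.24 and -1.23. Zfp358, at 15.8, 43.8, 34.9 and 15.8, and Prp2, at 15.8, 36.4, 59.8 and 18.9, had the same directions with arrays at the floor, and the difference of Prp2 was 0.43 when that was set at the 60th percentile. Ptpn12, Prkar1b, Cmtm7, Pcbd2 and Rell1 had control responses of 1.02 to 1.20 and Akt responses of -1.03 to -1.45. Over the 27 genes, Akt cells without LIF were within 2-fold of control cells with LIF in 23. Akt cells with LIF were within 2-fold of control cells without LIF in 20. Here too the share over all genes was not counted. With a pseudocount in place of the floor, 12 genes were opposite in place of 34, and 91 were enhanced in place of 158.

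**Figure D2:**
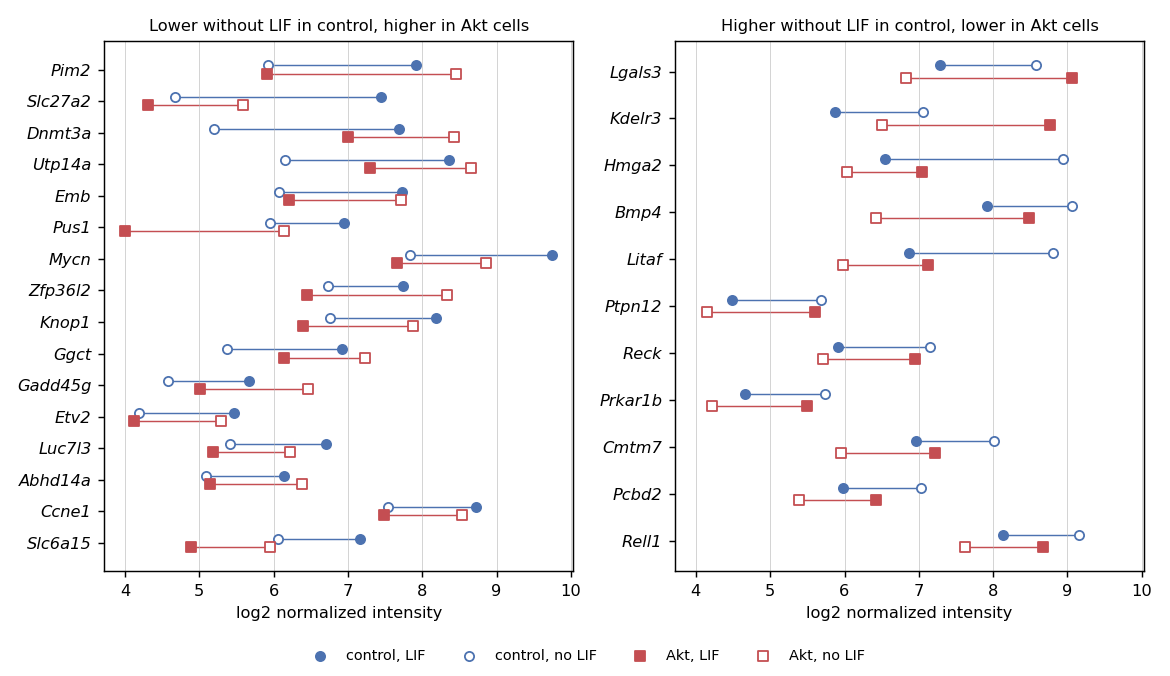
Log2 normalized intensity (x axis) of the 27 opposite genes, 1 row per gene, with circles for control cells and squares for Akt cells, filled with LIF and open without. In the left panel, such as Pim2 at 240.8, 60.4, 60.2 and 350.0, open and filled symbols change sides between lines, and in the right panel, such as Lgals3 at 156.6, 380.1, 536.0 and 113.4, they do so the other way.

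Gene lists describe which functions these differences took in. The lists were chosen with earlier results of these data known, so their shares beside those of all genes are descriptions and not evidence of enrichment. Each list is given by its measured members, those that exceeded the floor on 1 array or more. Its median is set beside the median difference of 0.01 over all 6258 genes. Counts of 2-fold differences in a list stand beside 9.25% of all genes above 0 and 9.27% below. With a median near 0, all genes had differences above and below 0 in similar numbers. Ribosome biogenesis genes were lower without LIF in control cells and slightly higher in Akt cells, with medians of -0.69 and 0.20. Of 38 measured genes, 34 had a difference above 0, and 16 were 2-fold or more above 0 (against 9.25% of all genes) and 1 below (9.27%), with a median difference of 0.94. All but 1 of the 38 were above the floor on every array. Only 2 members were opposite, Utp14a and the pseudouridine synthase gene Pus1, and 4 were blunted, while 10 had small responses of opposite sign. Ddx18, an RNA helicase gene, read 521.5, 301.1, 307.1 and 583.8, and another probe set gave a difference of 0.78 against 1.72. Nhp2, of the particles that guide pseudouridylation, read 1575.5, 751.4, 1300.0 and 1494.3. Control cells without LIF were the low array for Nhp2, and for Ddx18 Akt cells with LIF were as low. The exception was Ubtf, which encodes a factor for RNA polymerase I and read 117.7, 132.2, 234.7 and 115.5.

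Other genes of growing cells differed the same way by less. Of 46 cell cycle and replication genes, 34 had a difference above 0, with a median of 0.37. Only 4 were 2-fold above 0 (Myb, Ccne1, Ccnd1 and Rrm1), a share near the 9.25% of all genes. Among 31 chaperone genes, 27 were above 0 with a median of 0.46, and Hsph1, a heat shock protein gene, read 761.0, 342.9, 572.5 and 693.0. Of 29 proteasome genes, 26 were above 0, but none reached 2-fold and the median was 0.27. Cytoplasmic ribosomal protein genes had a median difference of 0.09 over 24 genes and oxidative phosphorylation genes of 0.10 over 47, with 1 and 0 members 2-fold apart, so these abundant housekeeping genes lay near the median of all genes. The E-box CACGTG, a sequence that Myc proteins bind, was in the 250 bases before the start of 2 of 34 ribosome biogenesis genes with a RefSeq promoter, Imp4 and Nop2, or 5.88%, against 6.04% of all 27025 promoters.

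**Figure D3:**
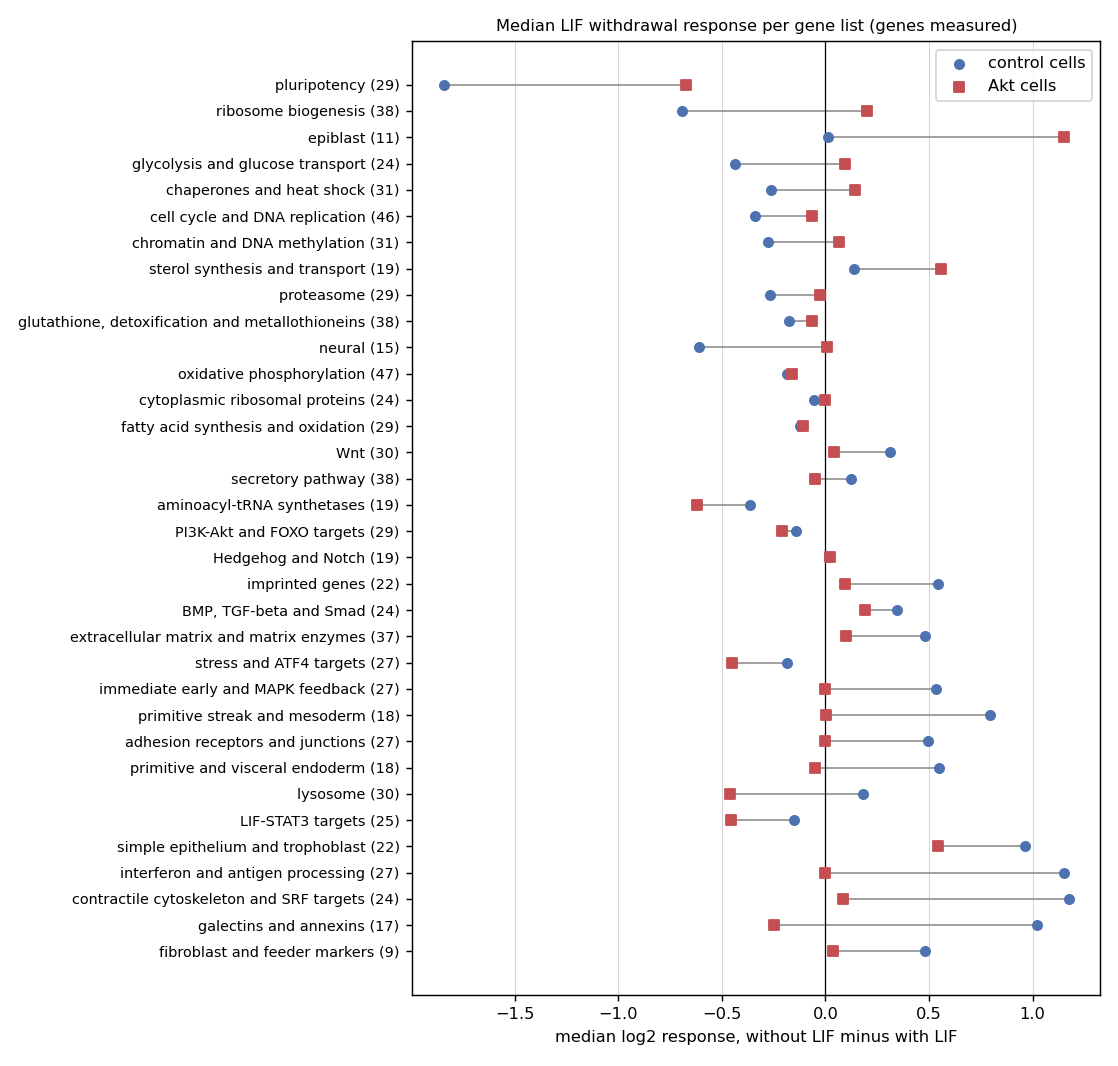
Median log2 response to LIF withdrawal (x axis) of the measured genes of 34 lists, with circles for control cells and squares for Akt cells, ordered by the median of the genes' differences and with the number of genes in brackets. Pluripotency lies furthest to the left in both lines at -1.84 and -0.67, and contractile genes run from 1.18 in control cells to 0.08 in Akt cells.

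Pluripotency genes were lower without LIF in both lines and by less in Akt cells. Over 29 measured genes the median response was -1.84 in control and -0.67 in Akt cells, with a median difference of 1.03. The difference was 2-fold above 0 in 15 genes and below 0 in 2. Of the 29, 14 were blunted (against 8.42% of all genes), 5 were 2-fold lower in both lines without a 2-fold difference, and 2 were enhanced. The median difference was 0.46 when the floor was set at the 60th percentile and 0.82 over the 25 genes never at the floor. The zinc finger gene Zfp42 read 1219.1, 82.4, 1784.5 and 552.8, and Fbxo15, an F-box gene of undifferentiated cells, read 651.1, 33.2, 704.0 and 212.5. Both were thus 2-fold lower in Akt cells too, at responses of -1.69 and -1.73 against -3.89 and -4.29.

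Several of the blunted members were close to their level with LIF in Akt cells. Sox2, a core transcription factor gene, read 2238.8, 471.9, 2329.6 and 1537.6, with an Akt response of -0.60. Fgf4, a growth factor gene that SOX2 and OCT4 activate, read 402.6, 78.1, 673.8 and 481.2. Utf1, a chromatin factor gene of stem cells, read 741.0, 136.5, 463.9 and 722.9, so its small Akt response of 0.64 was upward. Pou5f1 and Nanog were not blunted. Pou5f1, at 491.4, 263.7, 612.4 and 452.1, differed by 0.46, under the spread between probe sets. Nanog, at 1318.5, 696.5, 1398.2 and 646.5, was lower without LIF in both lines. It differed by -0.19, also under that spread, and its other probe set gave 0.37.

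The members with a like loss in both lines included known targets of LIF. Klf4, at 568.2, 86.4, 619.6 and 117.0, had responses of -2.72 and -2.40. Tfcp2l1, at 312.0, 86.4, 750.0 and 123.0, had responses of -1.85 and -2.61. Socs3, the feedback inhibitor of JAK-STAT signalling, read 262.2, 50.7, 181.4 and 24.5, with responses of -2.37 and -2.89 and a difference of -0.52. Tcl1, which encodes a coactivator of Akt, read 103.3, 17.1, 200.4 and 22.9. The Krüppel-like gene Klf5 was enhanced: at 554.4, 618.4, 1000.9 and 248.4, it responded by 0.16 in control and -2.01 in Akt cells.

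The LIF-STAT3 list of 25 measured genes therefore differed from pluripotency in sign. Its median response was -0.15 in control and -0.45 in Akt cells, with a median difference of -0.56, and 18 of the 25 were below 0. That median was -0.30 when the floor was set at the 60th percentile. Fos, an immediate early gene, read 69.0, 284.9, 330.2 and 183.7, and Cebpb, a transcription factor gene of the acute phase response, read 54.3, 158.3, 296.2 and 171.4. Both responses were upward by 2-fold in control cells and downward by less in Akt cells. Icam1, an adhesion receptor gene, read 73.6, 50.2, 216.3 and 47.8, with Akt cells with LIF as the high array. Sgk1, a kinase gene, was blunted in the other direction at 839.7, 211.4, 361.6 and 353.5.

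Epiblast genes, which mark the stage after naive pluripotency, had medians of 0.01 in control and 1.15 in Akt cells over 11 genes, with 5 differences 2-fold above 0 and none below. The median difference of 0.90 was 0.36 over the 7 genes never at the floor, so this list rests on low values. Pim2 and Dnmt3a, described above, are members. Pou3f1, a POU factor gene of the epiblast, read 36.0, 24.8, 15.8 and 40.7. Zic2 read 37.0, 37.2, 24.5 and 73.8, and its other probe set gave a difference of -1.42 against 1.58.

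Genes of the contractile cytoskeleton and targets of serum response factor were higher without LIF in control cells, with a median of 1.18 over 24 genes, and near 0 in Akt cells, with 0.08. Of the 24, 21 had a difference below 0, 12 of them by 2-fold or more where 9.27% of all genes were, and none was 2-fold above 0. The median difference was -0.93. Lpp, a focal adhesion gene, read 104.4, 741.8, 103.0 and 85.2. Vcl, the vinculin gene, read 616.4, 1494.3, 335.9 and 383.6, and Actn1, the actinin gene, 1450.4, 3393.9, 1356.6 and 1287.3. Control cells without LIF were the single high array for these genes. Other probe sets of Actn1 gave differences of -0.62 and -1.86. The smooth muscle genes Tagln, at 272.9, 1318.5, 20.2 and 79.6, and Acta2, at 210.6, 903.5, 15.8 and 69.0, were higher without LIF in both lines, from different levels. The difference was -0.30 for Tagln, which was near the floor in Akt cells with LIF. Acta2 was at the floor there, so its difference of 0.03 is a lower bound.

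Galectins, annexins and S100 proteins, which bind sugars, membranes or calcium, had all 17 measured genes below 0. Of these, 9 were so by 2-fold or more (against 9.27% of all genes), and the median difference was -1.01. Anxa2 read 218.2, 1088.6, 135.0 and 210.6, and Anxa5 100.1, 435.4, 74.7 and 84.6, high in control cells without LIF. S100a13 differed from them, since it read 99.7, 79.5, 294.0 and 64.0 and was high in Akt cells with LIF. Simple epithelium and trophoblast genes had medians of 0.96 in control and 0.54 in Akt cells over 22 genes. Of their differences 9 were 2-fold below 0 (against 9.27% of all genes) and none above. Krt19, a keratin gene, read 99.5, 537.7, 57.6 and 83.2, and Dsp, the desmoplakin gene of desmosomes, 310.6, 1307.8, 135.6 and 195.3. Krt18, at 131.9, 627.0, 67.3 and 165.2, was 2-fold higher without LIF in both lines.

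Adhesion receptor genes had 21 of 27 differences below 0, 8 of them by 2-fold or more, where 9.27% of all genes were. Their median difference was -0.51, and -0.29 when the floor was set at the 20th percentile. Dsc2, a desmosomal cadherin gene, read 28.7, 213.8, 21.0 and 22.3. Cd47, which encodes the signal that restrains phagocytes, read 31.7, 163.2, 52.5 and 41.6, and Cd99, an adhesion gene, 36.5, 257.0, 36.9 and 36.9. All 3 were high in control cells without LIF alone. Another probe set of Cd47, above the floor on 1 array, gave a difference of -0.91 against -2.70. Matrix genes had 24 of 37 differences below 0, 9 by 2-fold or more (against 9.27% of all genes), with a median of -0.31. The basement membrane collagen gene Col4a1 read 175.6, 548.2, 415.6 and 444.8, so Akt cells had a level near that of the high array with and without LIF. Dcn, the decorin gene, read 16.6, 152.8, 15.8 and 15.8.

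Dcn and the collagen genes are also markers of fibroblasts. The 9 measured fibroblast markers had a median difference of -1.08, with 8 of 9 below 0 and 5 of them by 2-fold or more, and a median of -0.44 over the 3 above the floor on all arrays. Their summed intensity was highest in control cells without LIF, as given above, which is the array where contractile, matrix and adhesion genes were high. The part of such cells in these differences was not tested.

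Interferon-inducible and antigen processing genes were 2-fold higher without LIF in 15 of 27 measured cases in control cells, where 7.06% of all genes were, and in none in Akt cells. Their median responses were 1.15 and 0.00, with 22 of 27 differences below 0, 11 by 2-fold or more, and a median of -0.85. For 7 of them, Gbp2b, Cxcl10, Gbp3, Gbp2, Iigp1, Isg15 and Psmb8, both Akt arrays were at the floor, so no Akt response could be measured. The guanylate-binding protein gene Gbp2b read 82.5, 662.1, 15.8 and 15.8, which is 8.02-fold higher without LIF in control cells. Isg15, a ubiquitin-like protein gene, was higher by at least 5.69-fold and the chemokine gene Cxcl10 by at least 7.81-fold. B2m, the light chain gene of class I molecules, was above the floor throughout at 140.2, 504.0, 230.8 and 169.1. Tapbp, whose protein loads peptides onto those molecules, read 89.4, 437.9, 51.1 and 63.5, and its other probe sets gave differences of -0.82 and -1.17 against -1.98.

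Many interferon-inducible genes carry an interferon-stimulated response element, where a complex of STAT and IRF proteins binds. The 250 bases before the start of Isg15 (chr4:156200819-156201068, minus strand), Gbp2b (chr3:142594597-142594846, plus strand) and Cxcl10 (chr5:92348890-92349139, minus strand) are shown from RefSeq on GRCm38.p6, because these genes had large differences and hold the core of that element. Each is written 5' to 3' on the strand of the gene, and capitals mark matches to GAAANNGAAA on either strand.
Isg15: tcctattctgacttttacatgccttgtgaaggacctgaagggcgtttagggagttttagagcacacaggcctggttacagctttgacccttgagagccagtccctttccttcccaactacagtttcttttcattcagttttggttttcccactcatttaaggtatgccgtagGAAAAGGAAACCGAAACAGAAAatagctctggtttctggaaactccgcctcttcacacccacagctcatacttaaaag
Gbp2b: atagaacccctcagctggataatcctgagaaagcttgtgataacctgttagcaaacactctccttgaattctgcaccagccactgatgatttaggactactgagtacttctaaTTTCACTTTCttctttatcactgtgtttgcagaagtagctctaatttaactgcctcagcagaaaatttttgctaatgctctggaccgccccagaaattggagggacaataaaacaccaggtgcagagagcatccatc
Cxcl10: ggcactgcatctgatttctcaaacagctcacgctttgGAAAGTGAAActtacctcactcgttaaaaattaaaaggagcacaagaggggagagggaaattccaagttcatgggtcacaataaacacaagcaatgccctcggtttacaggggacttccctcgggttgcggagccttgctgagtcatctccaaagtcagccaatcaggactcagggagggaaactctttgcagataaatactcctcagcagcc
The 3 matches of Isg15 overlap and begin 78, 72 and 66 bases before the start, and those of Gbp2b and Cxcl10 begin 137 and 213 bases before it. Such a match was in 9 of the 23 list members with a RefSeq promoter (39.1%) and in 3.05% of all 27025 promoters (823). The 9 were B2m, Cxcl10, Gbp2, Gbp2b, Gbp3, Ifitm2, Igtp, Irgm1 and Isg15. Their median control response was 2.51 with 7 of 9 2-fold higher, and for the 14 members without a match it was 0.69 with 6 of 14. A match is a description of letters and does not show binding.

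Signalling genes were among the largest blunted responses. Wls, which encodes the factor that escorts Wnt proteins to the cell surface, read 49.7, 517.4, 29.1 and 34.2. The Wnt ligand gene Wnt6 read 19.9, 311.3, 15.8 and 25.8, and Wnt4 read 15.8, 223.6, 15.8 and 15.8. All 3 were high in control cells without LIF only. The whole Wnt list of 30 genes was not one-sided, with 5 differences 2-fold above 0, 6 below and a median of -0.13. Among those above 0 were the secreted inhibitor genes Sfrp1, at 55.4, 15.8, 61.7 and 53.0, whose difference was -0.0047 when the floor was set at the 60th percentile, and Sfrp2, at 102.8, 59.9, 58.9 and 132.9.

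In the BMP and TGF-beta list of 24 genes, 3 differences were 2-fold above 0 and 7 below (against 9.25% and 9.27% of all genes). Their median was -0.31. Tgfb1, a growth factor gene, read 16.0, 329.3, 15.8 and 15.8, with both Akt arrays at the floor. Hes1, a repressor gene that Notch and BMP signals induce, read 53.7, 585.7, 104.8 and 132.1. The homeobox gene Msx1 read 55.9, 303.5, 29.6 and 56.9. Id3 and Id1, genes of dominant negative helix-loop-helix proteins and direct BMP targets, were on the other side. Id3 read 227.0, 224.6, 79.6 and 319.8 and Id1 206.6, 160.6, 76.6 and 166.5, so Akt cells with LIF were the low array and control cells hardly responded.

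The hedgehog receptor gene Ptch1 had the largest difference of any gene that was never at the floor, 4.93, at 375.6, 19.2, 177.6 and 276.6. Its other probe set gave -0.01, so the probe sets of this gene disagree. Gli1, a target gene of the pathway, read 56.8, 15.8, 53.8 and 61.9, which was at least 3.60-fold lower without LIF in control cells and 1.15-fold higher in Akt cells. Immediate early genes had 22 of 27 differences below 0 with a median of -0.41. Among them was Atf3, a stress-inducible factor gene, at 51.0, 252.2, 97.6 and 86.9. Another probe set of Atf3 gave a difference of -1.24 against -2.47. Bhlhe40, a helix-loop-helix repressor gene, read 54.6, 262.6, 69.3 and 45.0. Mesoderm genes had 17 of 18 differences below 0, 7 by 2-fold or more, with a median of -0.42. Only 6 of those 18 were above the floor on all 4 arrays, with a median of -0.32, so this list rests on low values. Endoderm genes had 15 of 18 below 0, 5 by 2-fold or more, with a median of -0.54, and of -0.78 over the 11 never at the floor. Evx1, a streak homeobox gene, read 15.8, 121.9, 15.8 and 15.8, and Gata4, an endoderm factor gene, 15.8, 55.3, 59.0 and 47.7. Gata4 thus stood as high in Akt cells with LIF as in control cells without it.

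**Figure D4:**
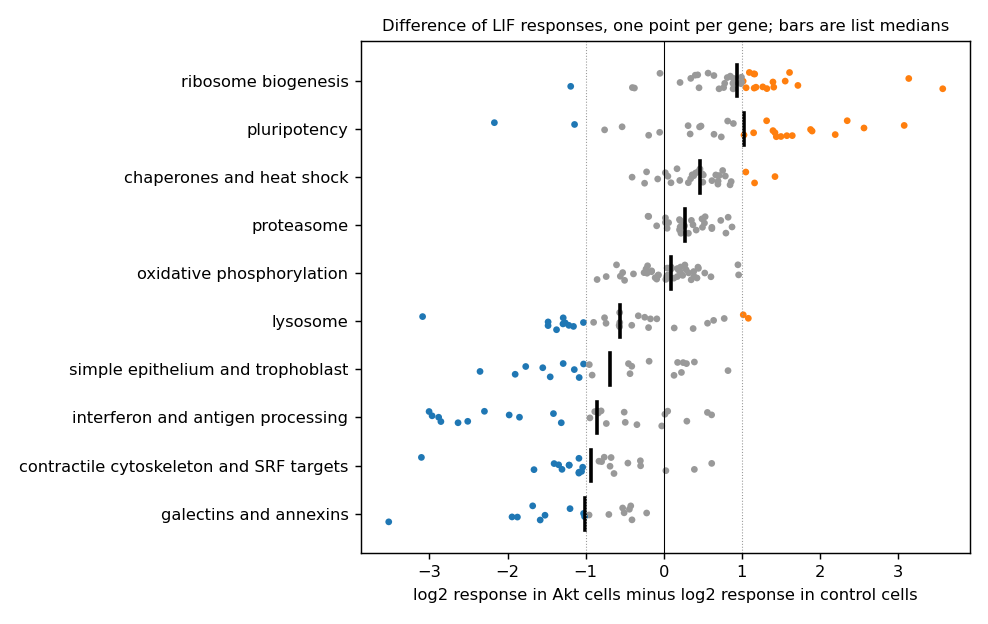
Difference of responses (x axis, Akt response minus control response in log2 units) for each measured gene of 10 lists, with black bars at list medians, dotted lines at 2-fold and colours for genes beyond them. Ribosome biogenesis and pluripotency lie to the right at medians of 0.94 and 1.03, proteasome and oxidative phosphorylation genes stay within 2-fold, and galectins and annexins lie wholly below 0.

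Among detoxification genes, several were lower without LIF in control cells and near their level with LIF in Akt cells. Mt1, a metallothionein gene whose product binds zinc and copper, read 646.5, 50.9, 2519.0 and 2172.1, and Mt2 1684.5, 283.9, 3171.3 and 3003.6. Akt cells had the higher level on both of their arrays. Gsta4, a glutathione transferase gene that clears lipid aldehydes, read 510.8, 36.9, 466.7 and 443.1, so control cells without LIF formed the single low array. Over 38 genes of this list 8 differences were 2-fold above 0 and 3 below (against 9.25% and 9.27% of all genes), with a median of 0.25. Ephx1, an epoxide hydrolase gene, was the largest exception at 15.8, 15.8, 110.7 and 21.2.

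Single blunted genes outside the lists had a like shape. Aass, an enzyme gene of lysine breakdown, read 606.2, 34.5, 642.4 and 287.4. Twf2, which encodes the actin-binding twinfilin, read 161.6, 19.2, 135.5 and 157.7, and Trh, the gene of thyrotropin-releasing hormone, 170.4, 34.7, 85.6 and 108.4. Ina, an intermediate filament gene, read 612.8, 124.5, 298.5 and 444.2, and its other probe set gave 2.83 against 2.87. Zfp94 read 69.0, 19.4, 51.3 and 99.0, and Ccnb1ip1 262.2, 58.4, 212.8 and 309.0. In these 6 genes control cells without LIF were the lowest array. Calcoco2, at 171.6, 15.8, 61.3 and 57.7, was at the floor there. So was the carbonyl reductase gene Cbr3, a member of the detoxification list, at 98.1, 15.8, 101.4 and 191.0. In the other direction, Fah, an enzyme gene of tyrosine breakdown, read 65.8, 263.1, 110.7 and 80.3, and the protease gene Tmprss2 15.8, 288.3, 15.8 and 15.8.

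The list of glycolysis and glucose transport also held genes of other functions, such as Bnip3, Egln1 and P4ha1. Its medians were -0.44 in control and 0.10 in Akt cells over 24 genes. Of their differences 17 were above 0, 5 of them by 2-fold or more, where 9.25% of all genes were. Pdk1, which encodes a kinase that holds back pyruvate oxidation, read 448.6, 160.9, 323.3 and 368.3. The glucose transporter gene Slc2a3 went the other way at 711.4, 2029.9, 794.5 and 461.6, and its other probe set gave a difference of -2.31 against -2.30. The median difference of 0.51 was 0.38 over the 20 genes never at the floor and 0.091 when it was set at the 60th percentile. Chromatin genes were mixed, with 20 of 31 above 0 and a median of 0.32, from Hmga2 to Dnmt3a. Cbx1, a heterochromatin protein gene, read 266.6, 86.0, 130.2 and 205.7.

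Enhanced responses took in stress genes that were high in Akt cells with LIF. In the list of stress and ATF4 targets, 7 of 27 genes were enhanced (against 2.52% of all genes), and 10 differences were 2-fold below 0 and 3 above, with a median of -0.36. Atf5, a factor gene of the integrated stress response, read 33.9, 36.8, 251.6 and 35.3, with responses of 0.12 and -2.83. Nupr1, a stress-inducible chromatin protein gene, read 15.8, 15.8, 252.2 and 19.5, and Ddit3, the CHOP gene, 15.8, 15.8, 82.0 and 15.8. Trib3, which encodes a pseudokinase that binds Akt, read 30.3, 15.8, 182.3 and 27.5. Atf4 itself read 232.3, 216.6, 458.0 and 198.7. In these 5 genes Akt cells with LIF were the high array, and the other 3 arrays were lower.

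The same array was high for genes tied to ATF4. Asns, the asparagine synthetase gene, read 602.1, 814.8, 1235.1 and 679.5, a difference of -1.30 and of -2.29 with its other probe set. Cars, a cysteinyl-tRNA synthetase gene, read 80.0, 76.9, 366.2 and 102.4. Over the 19 synthetase genes the summed intensity was also highest in Akt cells with LIF, at 4810.7, 3716.4, 6931.3 and 4809, and 5 of 19 were 2-fold lower without LIF in Akt cells, against 3.47% of all genes. Vars, at 260.7, 115.7, 151.5 and 237.4, and Farsa, at 87.9, 40.4, 55.7 and 76.6, were exceptions, with blunted responses and differences above 0. The actin 3' to 5' ratio was also highest, at 3.04, in Akt cells with LIF. The Gapdh ratio was not, at 3.05 there and 3.19 in control cells without LIF. The part of either was not tested.

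Lysosome genes had a median response of 0.18 in control and -0.46 in Akt cells, and a median difference of -0.56. Of 30 differences 23 were below 0, 10 of them by 2-fold or more, where 9.27% of all genes were. Hexa, a hexosaminidase gene, had responses of -0.46 and -1.61, and Grn, the progranulin gene, read 144.0, 139.2, 319.9 and 126.6, with -0.40 against -1.29 by another probe set. Atp6v0d1, a gene of the proton pump that acidifies lysosomes, read 221.1, 274.9, 596.2 and 286.5. Akt cells with LIF were again the high array. Ctsz, a cathepsin gene, and Scarb2 were 2-fold above 0, though Ctsz was at -0.36 when the floor was set at the 60th percentile. Apoe, the lipid carrier gene, read 452.8, 735.6, 1436.1 and 483.8.

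Other enhanced genes lower without LIF in Akt cells encode signalling proteins. Traf3ip2, an adaptor gene of interleukin 17 receptors, read 30.7, 31.6, 194.2 and 37.5, high in Akt cells with LIF. Tradd, an adaptor gene of tumour necrosis factor receptors, read 119.2, 123.8, 130.2 and 28.5, and there Akt cells without LIF were the single low array. Strn4, a gene of phosphatase complexes, read 46.2, 59.0, 49.5 and 16.0 with the same shape. Csnk1e, Rreb1, Ppp1r2 and Wsb1 had control responses of 0.81 to 0.90 and Akt responses of -1.06 to -1.17, so each lay close to the opposite class. The other probe set of Ppp1r2 gave -0.39. Stra8, a gene that retinoic acid induces, was above the floor mainly in Akt cells with LIF, at 15.8, 15.8, 76.7 and 16.0.

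Enhanced genes higher without LIF in Akt cells were mostly low in Akt cells with LIF. Kcnk1, a potassium channel gene, read 322.6, 436.8, 27.2 and 224.9. Its Akt response of 3.05 was the largest upward one where no array was at the floor. Prom1, which encodes the membrane protein prominin 1, read 94.7, 154.9, 27.3 and 204.0, and its other probe set gave 1.87 against 2.19. Esrp1, a splicing regulator gene of epithelial cells, read 138.2, 115.3, 31.3 and 114.9. Itm2a, a membrane protein gene, read 172.0, 148.1, 105.5 and 408.4, and Hes6, a regulator gene of neural differentiation, 34.2, 17.7, 19.9 and 60.5. For these last genes Akt cells without LIF were the high array. Ptpru, Rhpn2, Slain1, Cdca7l and Krtap3-1 had control responses of -0.47 to -0.92 and Akt responses of 1.16 to 1.75. Dnajc11, at 64.6, 38.4, 15.8 and 49.6, had Akt cells with LIF at the floor. Sterol synthesis genes had a median response of 0.14 in control and 0.56 in Akt cells over 19 genes, with 13 differences above 0 but 1 of 2-fold, Dhcr7, at 32.7, 36.0, 23.1 and 59.0.

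The remaining lists had medians closer to that of all genes. The 29 PI3K-Akt and FOXO target genes had 5 differences 2-fold above 0 and 4 below (against 9.25% and 9.27% of all genes). Their median difference was -0.15. Akt1 read 77.8, 112.4, 71.0 and 71.6, which does not check the label because the form introduced is not known here. Klf6, a factor gene that responds to growth signals, read 202.7, 611.0, 249.3 and 228.2. Fatty acid genes had a median of -0.13 over 29 genes, secretory pathway genes -0.14 over 38, synthetase genes -0.15 over 19 and Hedgehog and Notch genes -0.16 over 19. The 15 neural genes had 5 differences 2-fold above 0 and 2 below (against 9.25% and 9.27% of all genes), with a median of 0.20. Imprinted genes had 18 of 22 differences below 0 with a median of -0.26, and Igf2, the insulin-like growth factor gene, read 254.2, 988.9, 930.1 and 1442.2, so that Akt cells were high with and without LIF.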

How the data were processed

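Total RNA of 4 samples was measured on Affymetrix arrays, 1 per group. The deposited values are linear intensities, 1 per probe set, with their software and scaling not given in the sources used here. Quantile normalization (limma 3.58.1, R 4.3.3) covered the 12422 non-control probe sets, values under the 40th percentile (15.8) were set to it, and log2 was taken. It removes shifts common to most genes. The platform annotation gave 10833 probe sets 1 symbol, 396 several and 1193 none, and RefSeq gene identifiers updated 10817. Of several probe sets of a gene, 1 stood for it, that with the highest mean over the 4 arrays, for 8251 genes. Responses and classes were computed in Python 3.11.15 and tested on simulated data.

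Members and gene lists were chosen with earlier results of these data known. Named were all opposite genes, the 10 largest blunted and enhanced differences each way above the floor on all arrays, the 5 largest bounds per class, and list members. Promoters (GRCm38.p6) came from RefSeq, 1 per gene. Alternatives were scaling, floor, pseudocount, filter, probe set and size. The number of arrays limits the precision.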

Additional observations from a re-analysis of the deposited data

Results flagged for a closer look

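The 27 genes with opposite responses on all 4 arrays are listed for a closer look because the array without LIF stood 2-fold or more to one side of that with LIF in control cells and to the opposite side in Akt cells. The difference itself was not tested, since each group has 1 array. In log2 units, Akt response minus control response, it was above 0 for Pim2 (4.54), Slc27a2 (4.06), Dnmt3a (3.92), Utp14a (3.57), Emb (3.16), Pus1 (3.14), Mycn (3.12), Zfp36l2 (2.90), Knop1 (2.90), Ggct (2.62), Gadd45g (2.55), Etv2 (2.46), Luc7l3 (2.32), Abhd14a (2.29), Ccne1 (2.25) and Slc6a15 (2.18). It was below 0 for Lgals3 (-3.52), Kdelr3 (-3.45), Hmga2 (-3.41), Bmp4 (-3.21), Litaf (-3.09), Ptpn12 (-2.65), Reck (-2.47), Prkar1b (-2.35), Cmtm7 (-2.31), Pcbd2 (-2.08) and Rell1 (-2.06). The lines differed more without LIF than with LIF in 17 of the 27.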

How the results depend on the processing

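Of the values below, the cause was not tested unless the setting itself gives it, such as fewer genes. Scaled to hybridization controls, list medians of the difference moved to -0.70 for LIF-STAT3 targets, 0.36 for glycolysis and 0.90 for pluripotency. With a floor at the 20th percentile, 1012 genes differed 2-fold above 0 and 1004 below, with 106 opposite, 834 blunted and 477 enhanced. Medians were then -0.29 for adhesion, 1.34 for epiblast, 1.17 for pluripotency and -0.92 for epithelium, and Irs2 turned to 0.42. At the 60th percentile the counts were 346, 357, 17, 340 and 69. Medians were then -0.30 for LIF-STAT3 targets, -1.09 for contractile genes, 0.32 for epiblast, -0.61 for fibroblast markers, -1.52 for galectins, 0.091 for glycolysis and glucose transport, -1.21 for interferon, 0.46 for pluripotency and -0.81 for endoderm. There Bcl3 turned to 0.10, Ctsz to -0.36, Inpp5d to -0.60, Prp2 to 0.43, Rex2 to -0.13, Sfrp1 to -0.0047 and Zfp57 to -0.14. A pseudocount gave 12 opposite and 91 enhanced genes, and medians of -0.76 for fibroblast markers, -0.85 for galectins, 0.37 for glycolysis and 0.84 for pluripotency. Genes above the floor on all 4 arrays gave 100 enhanced genes, and medians of 0.36 for epiblast, -0.44 for fibroblast markers, 0.38 for glycolysis, 0.82 for pluripotency, -0.78 for endoderm and -0.92 for epithelium. The mean over probe sets gave -0.68 for contractile genes, 0.56 for epiblast, -0.78 for fibroblast markers, 0.35 for glycolysis, 0.75 for pluripotency and 0.79 for ribosome biogenesis. With the plainest probe set, Lmna turned to 0.72 and Txnip to 0.60. At a 3-fold size the counts were 167, 204, 2, 163 and 37. No list median among these reversed its sign. No paired analysis was possible because each group has 1 array and the labels carry no replicate numbers. Signals near the floor limit what these arrays can show for low genes.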
